A study of Mus musculus with 6 samples.

Results

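The 36 genes described here encode the enzymes of cholesterol and fatty acid synthesis, the SREBP and LXR factors that control them, and a few partners of those factors. They were listed by name for their pathway roles, by a rule that uses no measured value but was written with earlier results of these data known, and all 36 were found by NCBI gene ID among the 27179 genes of the table. All 36 also reached 1 CPM (counts scaled by library size, the unit of all levels here) in at least 3 of the 6 libraries and so were among the 13018 genes tested.

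The libraries were RNA-seq of LT-HSC from C57BL/6 mice aged 8 to 12 weeks. LT-HSC, or long-term haematopoietic stem cells, are scarce cells of the marrow from which all blood lineages can be renewed. Both groups were homozygous for a conditional (cko) allele of Prdm16, a zinc-finger transcription regulator, and both were injected 5 times with pIpC, a double-stranded RNA that induces interferon. The control group (WT, Prdm16 cko/cko; Mx1-Cre +/+) lacked the Cre transgene and the knockout group (KO, Prdm16 cko/cko; Mx1-Cre tg/+) carried it. Marrow from 5 mice of each genotype was pooled 5 weeks after pIpC, and cells negative for CD48 and lineage markers and positive for Sca-1, c-Kit and CD150 were sorted as 3 technical replicates. The 3 libraries of a group are thus portions of pooled marrow, and every p-value below measures the spread between portions and not between mice. The Mx1 promoter responds to interferon and is not restricted to blood cells, so deletion was not confined to LT-HSC by design.

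Cells build cholesterol from acetyl-CoA in a mevalonate arm, which ends in farnesyl diphosphate, and a later arm that turns squalene into cholesterol. Fatty acids are made from the same acetyl-CoA and are then lengthened and desaturated. Most of these enzymes are transcribed under SREBP proteins, which Scap carries to the Golgi for cleavage when sterol is low and which the Insig proteins hold in the endoplasmic reticulum when sterol is high. LXR receptors sense oxysterols and raise sterol efflux and, through Srebf1, fatty acid synthesis. In marrow, sterol efflux through LXR-induced transporters is known to restrain proliferation of stem and progenitor cells.

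The RefSeq table of 300-base promoters (250 bases before to 50 after each start, GRCm38.p6, the assembly of mm10) held 29 of the 36 genes. The 150 bases before the start of 7 genes on which the results turn are given here on the strand of the gene, with CCAAT boxes in either orientation in capitals. In Hmgcs1 the sterol response element TCACNCCAC is also in capitals. Fasn (chr11:120824548-120824697, minus strand), Acat2 (chr17:12960726-12960875, minus strand) and Mvd (chr8:122443423-122443572, minus strand) had higher readings in KO. Idi1 (chr13:8885456-8885605, plus strand) was also among the higher genes. Nsdhl (chrX:72918371-72918520, plus strand) and Elovl5 (chr9:77917215-77917364, plus strand) had lower readings. Hmgcs1 (chr13:119690201-119690350, plus strand) is shown for its sterol response element.
Fasn: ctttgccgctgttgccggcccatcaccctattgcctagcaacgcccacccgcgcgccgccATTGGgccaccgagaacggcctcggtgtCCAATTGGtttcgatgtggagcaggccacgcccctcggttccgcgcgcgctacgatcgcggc
Acat2: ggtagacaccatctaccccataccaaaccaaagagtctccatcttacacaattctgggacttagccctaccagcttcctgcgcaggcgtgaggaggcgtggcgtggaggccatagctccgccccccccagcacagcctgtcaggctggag
Idi1: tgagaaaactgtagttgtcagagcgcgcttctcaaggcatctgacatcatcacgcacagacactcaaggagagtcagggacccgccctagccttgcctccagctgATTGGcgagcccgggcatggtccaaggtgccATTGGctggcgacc
Mvd: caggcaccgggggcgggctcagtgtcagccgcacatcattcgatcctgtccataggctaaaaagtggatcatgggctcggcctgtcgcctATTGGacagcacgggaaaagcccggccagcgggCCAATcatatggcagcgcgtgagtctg
Hmgcs1: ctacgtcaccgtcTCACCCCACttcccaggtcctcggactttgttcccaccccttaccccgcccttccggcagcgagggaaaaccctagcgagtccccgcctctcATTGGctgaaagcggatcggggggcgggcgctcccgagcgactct
Nsdhl: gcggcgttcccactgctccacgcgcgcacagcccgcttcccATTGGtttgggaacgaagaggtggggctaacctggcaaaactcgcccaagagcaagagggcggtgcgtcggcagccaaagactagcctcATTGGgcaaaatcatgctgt
Elovl5: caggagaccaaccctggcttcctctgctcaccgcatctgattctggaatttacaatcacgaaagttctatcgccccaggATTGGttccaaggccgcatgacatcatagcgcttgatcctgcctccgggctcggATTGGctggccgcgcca

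Short motifs (8 in all) were searched on both strands of these windows, and a gene was counted when any of its windows held the motif. The CCAAT box, bound by the NF-Y factor that works beside SREBP, was in 22 of the 29 genes (75.9%), against 43.0% of 10119 tested genes and 41.1% of all 27025 genes with a window. Fasn held 3 boxes within the bases shown, at 90, 62 and 59 bases before the start, and the last 2 overlap in opposite orientations. Idi1, Mvd, Nsdhl and Elovl5 held 2 each, Hmgcs1 held 1 and Acat2 held 0, so both the higher and the lower genes included promoters with CCAAT boxes.

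The full sterol response element TCACNCCAC was in 1 of the 29 genes (3.45%, against 1.38% of tested genes), at 137 bases before the Hmgcs1 start. Its shorter form CACNCCAC, which the longer element contains, was in Acat2, Hmgcs1 and Insig1 (10.3%, against 7.54%). The E-box CACGTG was in Dhcr7, Elovl5, Hsd17b7, Insig1, Sc5d and Scap (20.7%, against 11.8%), and the looser CANNTG, which contains it, in 72.4% against 67.2%. The GC box GGGCGG was in 75.9% against 68.0%, the nuclear receptor site TGACCT in 17.2% against 14.7%, and the lysosomal-type E-box TCACGTGA in 0% against 2.25%. In percentage points the CCAAT box had the widest gap between the members and the tested genes among the 8 motifs, as a description of windows and not of factor binding.

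Library depth was 36747729 to 43743795 reads, and the median tested gene differed by 0.003 log2 between groups. Prdm16 fell from 1630, 1860 and 1381 reads in WT to 323, 388 and 643 in KO (log2 KO minus WT of -1.93, SE 0.27, adjusted p = 0.00829 by limma with Benjamini-Hochberg adjustment). Leaving out KO replicate 2 gave -1.82 with adjusted p = 0.0508, or 0.065 with the genes tested in all 6 libraries kept. The gene total includes exons outside any deleted part, so reads that remained in KO do not measure the deletion. Of 13 LT-HSC markers, all tested, 0 were called, with summed levels of 2598 to 2746 CPM in WT and 2739 to 2910 CPM in KO, and the 4 markers used for positive sorting summed to 1518 to 1593 CPM in WT and 1310 to 1598 CPM in KO. The 7 markers sorted against (4 tested, 0 called) summed to 45.2 to 52.6 CPM in WT and 54.5 to 76.6 CPM in KO, which do not overlap.

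Markers of several blood cell types were higher in KO. Of 16 neutrophil markers 11 were called higher in KO (sum 400.0 to 416 CPM in WT, 1254 to 1474 in KO). Prtn3 (means 209 CPM in WT and 211 in KO) and Cxcr2 (2.64 and 1.14 CPM) overlapped between groups. Csf3r, Mmp8 and Mmp9 were separated and higher but not called. Of 9 eosinophil markers 6 were called higher (0.624 to 6.37 against 554 to 654 CPM, with Epx and Ear1 at 0 in WT). Siglecf (means 1.38 and 1.24 CPM) and Ccr3 (1.05 and 2.71 CPM) overlapped, and Il5ra was separated and higher but not called. Called higher were also 2 of 10 basophil and mast cell markers (5 tested, 13.7 to 18.4 against 93.9 to 107 CPM). In that list Cpa3 (means 12.7 and 12.8 CPM) and Fcer1a (2.8 and 6.25 CPM) overlapped between groups, and Hdc was separated and higher but not called. Mcpt4, Cma1, Tpsb2 and Tpsab1 were at 0 in all libraries. Of 11 B and plasma cell markers 6 were tested and 1, Igkc, was called higher (sum 60.8 to 65.9 against 213 to 214 CPM). Igkc was at 0 in WT and averaged 118 CPM in KO. Cd79b alone of the 6 was lower in KO, with means of 61.0 CPM in WT and 45.6 CPM in KO and separated groups. Ms4a1 and Pax5, not tested, were at 0 in WT and reached at most 2.84 and 0.893 CPM in KO. Of 12 monocyte and macrophage markers 8 were tested and 1, Ly6c2, was called higher (sum 24.1 to 44.3 against 104 to 119 CPM). Ly6c2 averaged 0.684 CPM in WT and 41.4 CPM in KO. Adgre1, Csf1r, C1qc and Ccr2 were also separated and higher in KO. Cd68 (means 16.1 and 15.0 CPM), Spic (6.62 and 7.34 CPM) and Vcam1 overlapped between groups. Adgre1, Mrc1 and Marco were at 0 in WT, but Mrc1 and Marco were also at 0 in KO replicate 1. Of 10 stromal and adipocyte markers 1 was called higher (6 tested, 26.6 to 36.3 against 61.4 to 70.3 CPM). Adipoq was at 0 in WT and Cidec at 0 in all libraries. Of 9 erythroid markers 7 were tested and 0 called (46 to 52 against 68.9 to 86.1 CPM, over the 8 in the table). Of 9 T and NK cell markers 3 were tested and 0 called (76.2 to 101 against 94.2 to 119 CPM, with Cd3e, Cd8a and Ncr1 at 0 in all). The part of these cells in the lipid gene values below was not tested. In bulk RNA, fewer cells of a type and less RNA per cell cannot be told apart.

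The comparison asks how sterol and fatty acid genes of LT-HSC differed when Prdm16 was deleted. None of the 36 genes passed the adjusted threshold, against 91 of 13018 genes (0.699%) over the whole table, and the smallest adjusted p among them was 0.073, for Fasn. At an unadjusted p below 0.05 there were 10 members (27.8%, against 10.3% of all tested genes), of which 6 were higher in KO (5.58% of all genes) and 4 lower (4.72%). The higher genes were Acat2, Mvd, Idi1 and Fdps of the mevalonate arm, Msmo1 of the later sterol arm and the fatty acid synthase Fasn. The lower genes were Fdft1 and Nsdhl of the later sterol arm and the fatty acid genes Elovl5 and Fads1.

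Counted by library, 8 members (22.2%) had all 3 KO libraries above all 3 WT libraries, where 8.52% of all tested genes did. These were the 6 higher genes with Ebp and Dhcr7. All 3 KO libraries were below all 3 WT libraries for 5 members (13.9%, against 8.01%), which were the 4 lower genes with Pmvk. The median difference over the 36 members was 0.07 log2, with 21 positive and 15 negative values, against 0.003 over all tested genes. Leaving out a library moved these counts. Without KO replicate 1, 2 members were higher and 2 lower at an unadjusted p below 0.05, together 11.1% against 7.96% of all genes tested in that fit. The counts moved least with KO replicate 2 left out, to 6 higher and 3 lower (25.0% against 10.8%). Without KO replicate 3 there were 3 higher and 5 lower (22.2% against 8.21%). Without WT replicate 1 or WT replicate 2 there were 4 higher and 2 lower (16.7%, against 9.07% and 8.88%). Without WT replicate 3 there were 6 and 2 (22.2% against 10.7%). Without WT replicate 1 the median over the members was -0.03 log2.

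**Figure D1:**
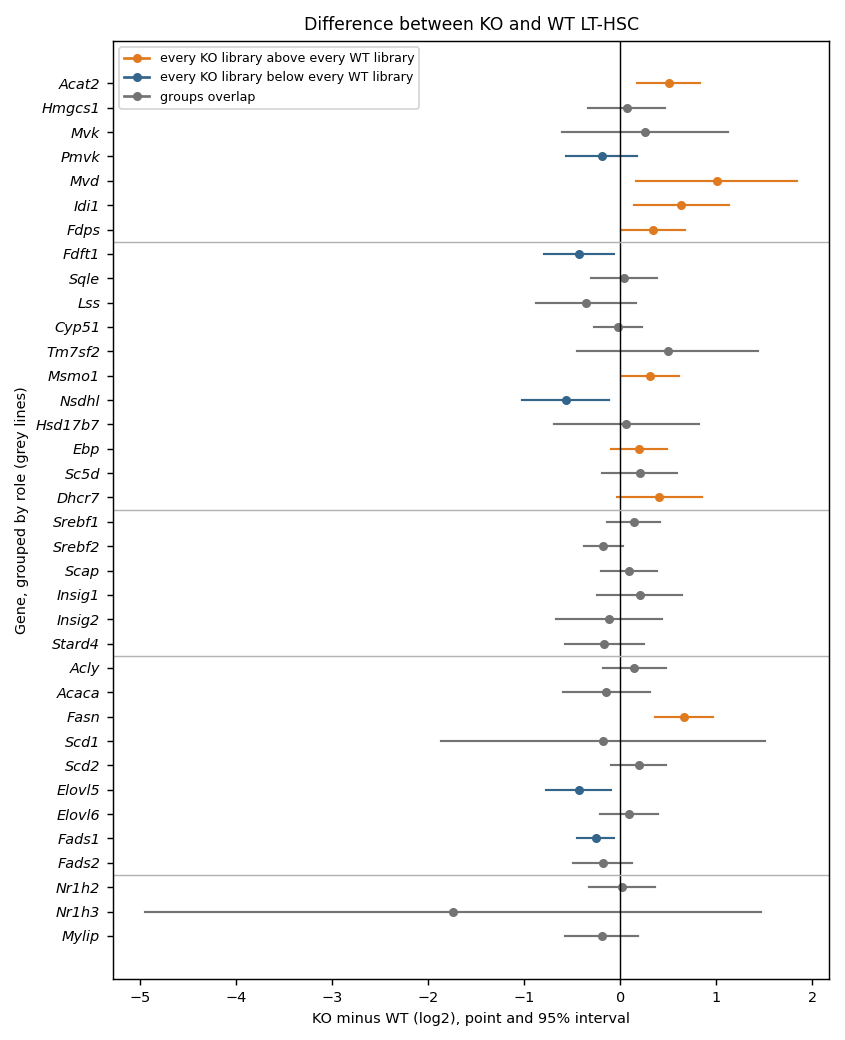
Difference between KO and WT on the log2 scale (x axis) for each of the 36 genes (y axis, by role), with points for the limma estimate and bars for its 95% interval. Orange genes had every KO library above every WT library (8 genes), blue genes had every KO library below (5 genes), and grey genes overlapped; Nr1h3 and Scd1 have the widest bars.

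The spread between libraries of a group varied widely from gene to gene. The counting error of a member's mean read count was 0.938% to 8.18% (median 2.04%), while the SD over 3 libraries was 2.4% to 97.5% of the mean in WT (median 13.7%) and 1.98% to 95.6% in KO (median 12.4%). For 29 of the 36 genes the 95% interval of the difference lay within 2-fold in either direction. The other 7 intervals, of Mvk, Mvd, Idi1, Tm7sf2, Nsdhl, Scd1 and Nr1h3, reached 2-fold or beyond.

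**Figure D2:**
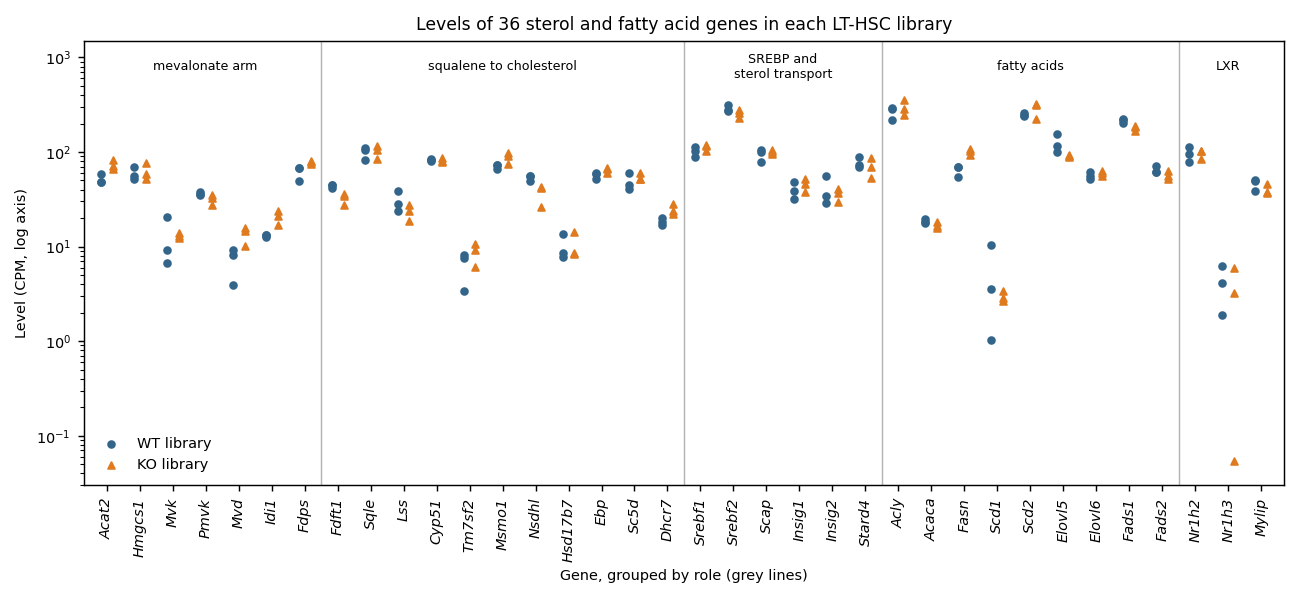
Level of each of the 36 genes in CPM (y axis, log scale) in the 3 WT libraries (blue circles) and 3 KO libraries (orange triangles), with genes grouped by role along the x axis. Most genes sit within a narrow band in all 6 libraries, while Scd1 spreads over WT (1.03 to 10.5 CPM) and Nr1h3 has 1 KO library at 0.0541 CPM.

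The mevalonate arm had higher summed readings in every KO library. Its 7 genes together measured 231, 231 and 260 CPM in WT and 293, 275 and 307 CPM in KO, which do not overlap (means 241 ± 16.6 and 291 ± 16.1, SD, n = 3). Of the 7 genes 0 were called, and 4 were higher and 0 lower at an unadjusted p below 0.05 (57.1%, against 10.3% of all tested genes). Groups were separated for 4 higher genes and 1 lower gene (71.4%, against 16.5%). The arm was not tested as a set, and its median difference was 0.34 log2. That median was 0.19 without WT replicate 1 and 0.60 without WT replicate 3, and over all tested genes it was 0.003.

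Acat2, the cytosolic thiolase that joins acetyl-CoA units to open the pathway, measured 48.1, 48.4 and 58.8 CPM in WT and 82.4, 66.2 and 71.5 CPM in KO. The groups did not overlap, and the difference was 0.51 log2 (SE 0.15, limma adjusted p = 0.253). Mvd, the decarboxylase that makes isopentenyl diphosphate, measured 8.07, 3.96 and 9.1 CPM in WT and 14.7, 10.2 and 15.8 CPM in KO. WT replicate 2 was the low library of its group, and the difference of 1.00 log2 had a wide interval, 0.17 to 1.84 (adjusted p = 0.382). Idi1, the isomerase that follows it, measured 13.4, 13.2 and 12.7 CPM in WT and 23.8, 20.8 and 17.1 CPM in KO. Its WT libraries lay close together and all 3 KO libraries stood above them, at 0.64 log2 (SE 0.22, adjusted p = 0.347).

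Fdps, which makes farnesyl diphosphate, measured 49.9, 67.8 and 67.9 CPM in WT and 73.8, 80.9 and 77.8 CPM in KO, a difference of 0.34 log2 (interval 0.00 to 0.68, adjusted p = 0.48). WT replicate 1 was the low library here. The other 3 genes of the arm did not share this pattern. Hmgcs1, the synthase that makes HMG-CoA and whose promoter held the full sterol response element, measured 51.2 to 68.9 CPM in WT and 51.2 to 75.7 CPM in KO (0.07 log2, interval -0.33 to 0.47). Mvk, mevalonate kinase, ranged from 6.71 to 20.7 CPM in WT, a range that held all 3 KO libraries at 12.3 to 13.8 CPM. Pmvk, the kinase after it, measured 35.2 to 37.4 CPM in WT and 27.5 to 35.2 CPM in KO (-0.19 log2, adjusted p = 0.73). Its groups were separated only by WT replicate 3 with 1537 reads and KO replicate 3 with 1536, a gap smaller than the counting error of 2.69%.

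Near-identical copies can take reads from these genes, and how multiply mapped reads were counted is not given in the sources used here. Acat3, a close copy of Acat2 and named here outside the rule, stood at 0.099 to 0.651 CPM in WT and 0.162 to 0.466 CPM in KO, and Idi2 was listed at 0 in every library. The RefSeq spans of 8 members overlap another gene of the table, and strand settings are not given. Fdft1 shares 774 bases with Ctsb, which measured 233 to 340 CPM in WT and 264 to 322 CPM in KO.

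The arm from squalene to cholesterol showed no common direction. Its 11 genes summed to 506, 526 and 524 CPM in WT and 504, 507 and 569 CPM in KO, which overlap, with a median difference of 0.06 log2. Of the 11 genes 0 were called. At an unadjusted p below 0.05 there was 1 higher (Msmo1) and there were 2 lower (Fdft1 and Nsdhl), together 27.3% against 10.3% of all tested genes. Libraries separated fully for 3 higher genes (27.3%, against 8.52% of all tested genes) and 2 lower genes (18.2%, against 8.01%).

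Fdft1, squalene synthase and the entry to this arm, measured 44.4, 41.5 and 45.1 CPM in WT and 27.7, 36.1 and 34.2 CPM in KO. All 3 KO libraries were below WT, at -0.43 log2 (SE 0.17, limma adjusted p = 0.399). Its difference had the opposite sign to that of Fdps, which makes its substrate. Nsdhl, part of the complex that removes the C-4 methyl groups of sterols, measured 48.8, 56.1 and 55.2 CPM in WT and 26.1, 42.7 and 41.6 CPM in KO. KO replicate 1 was lowest for both genes, and the Nsdhl difference was -0.57 log2 (SE 0.20, adjusted p = 0.36). Msmo1, the oxidase of the same demethylation, measured 72.5, 72.1 and 66.2 CPM in WT and 89.7, 74.8 and 98.1 CPM in KO (0.31 log2, SE 0.14, adjusted p = 0.469). Oxidase and dehydrogenase of the same step therefore had separated readings of opposite sign.

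Hsd17b7, the reductase that completes that demethylation, measured 7.76 to 13.6 CPM in WT and 8.44 to 14.2 CPM in KO, which overlap. Dhcr7, which makes cholesterol from its last precursor, measured 18.2, 17.1 and 20.2 CPM in WT and 22.1, 23.6 and 28.1 CPM in KO (0.41 log2, interval -0.04 to 0.85, adjusted p = 0.517). Ebp, the sterol isomerase, measured 51.7 to 59.5 CPM in WT and 60.4 to 67.7 CPM in KO (0.20 log2). Both had separated groups, yet both intervals included 0.

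The remaining genes of the arm overlapped between groups. Sqle, the epoxidase of squalene, measured 82.3 to 110 CPM in WT and 84 to 116 CPM in KO. Lss, which closes the sterol rings, measured 24 to 38.3 CPM in WT and 18.7 to 27.8 CPM in KO (-0.36 log2, interval -0.88 to 0.16). Cyp51, the C-14 demethylase, was the steadiest of the arm, with 81 to 85 CPM in WT, 78.3 to 87.4 CPM in KO and an interval of -0.28 to 0.23 log2. Sc5d, a desaturase of the ring, measured 40.2 to 59.8 CPM in WT and 51.6 to 60.4 CPM in KO. Tm7sf2, a C-14 reductase, measured 3.39 to 8.24 CPM in WT and 6.1 to 10.6 CPM in KO, and its interval of -0.45 to 1.44 log2 left a difference of either sign within reach.

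**Figure D3:**
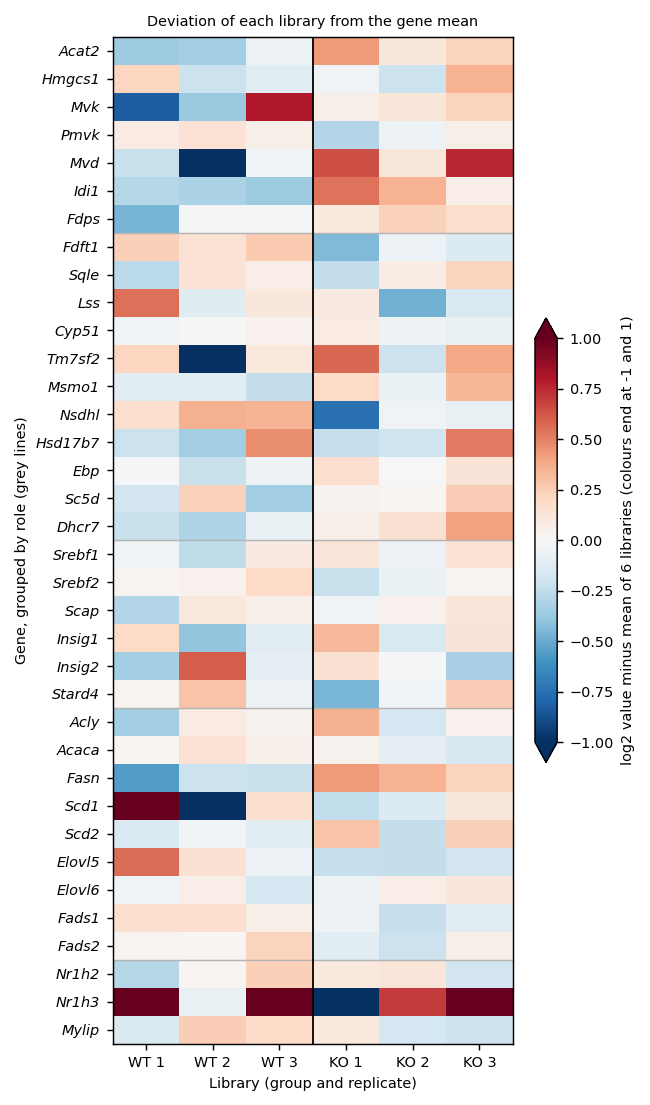
Log2 value of each gene in each library minus the gene's mean over 6 libraries, from blue (lower) to red (higher), with WT libraries left and KO libraries right of the black line and grey lines between roles. Acat2, Idi1 and Fasn are blue in all WT and red in all KO columns, Nsdhl and Fdft1 show the opposite, and Mvk, Scd1 and Nr1h3 vary between libraries of the same group.

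The 6 member genes for SREBP control and sterol transport had no separated groups, where 16.5% of all tested genes were separated. Of these 6 genes 0 were called and 0 passed an unadjusted p of 0.05 (10.3% of all tested genes did). Their median difference was -0.015 log2, or -0.12 without WT replicate 1, and they summed to 607 to 666 CPM in WT and 587 to 659 CPM in KO.

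Srebf2, which encodes the SREBP that mainly drives sterol genes, measured 274, 277 and 310 CPM in WT and 231, 258 and 275 CPM in KO. The groups overlapped only between the highest KO and the lowest WT library, and the difference was -0.18 log2 (SE 0.09, limma adjusted p = 0.55). Srebf1, whose SREBP mainly drives fatty acid genes, measured 103, 89.3 and 113 CPM in WT and 116, 102 and 118 CPM in KO (0.14 log2, SE 0.12, adjusted p = 0.74). Scap, the escort of both, measured 78.7 to 104 CPM in WT and 94.7 to 105 CPM in KO. All 3 intervals included 0, and their outer bounds were -0.38 log2 for Srebf2 and 0.41 log2 for Srebf1.

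Insig1, itself an SREBP target that retains Scap, measured 48.2, 31.8 and 39 CPM in WT and 52.4, 37.8 and 45.8 CPM in KO (0.20 log2, SE 0.20, adjusted p = 0.77). Its paralogue Insig2 measured 29.2, 56.1 and 34.6 CPM in WT and 41, 36.6 and 29.3 CPM in KO (-0.12 log2, SE 0.25, adjusted p = 0.908). The groups of both genes overlapped, and WT replicate 2 was at once the lowest of all 6 libraries for Insig1 and the highest for Insig2. Stard4, a soluble carrier of sterol, measured 69.5 to 88 CPM in WT and 52.7 to 85.9 CPM in KO.

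Among the fatty acid genes, the synthase Fasn had the largest positive difference, and the elongase Elovl5 and the desaturase Fads1 had the most negative ones. Of the 9 genes 0 were called, and 1 was higher and 2 were lower at an unadjusted p below 0.05 (33.3%, against 10.3% of all tested genes). The same 3 had separated groups (33.3%, against 16.5%). The group summed to 1031, 1102 and 1047 CPM in WT and 1196, 960 and 1111 CPM in KO, which overlap. The median difference was -0.15 log2, and it was 0.01 without WT replicate 1 and -0.03 with genes under 5 CPM left out.

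Fasn (chromosome 11, 120805958 to 120825166), the multidomain synthase that builds palmitate, measured 54.5, 69.3 and 68.7 CPM in WT and 108, 102 and 93.8 CPM in KO. Every KO library lay above every WT library, with 2202, 2555 and 2995 reads in WT and 3979, 4383 and 4100 in KO. The KO to WT ratio of fitted means was 1.58, or 0.66 log2 (SE 0.14, interval 0.36 to 0.97, limma adjusted p = 0.073). The gene passed the threshold in 4 of the 10 alternative analyses of all 6 libraries (adjusted p of 0.0338 to 0.0481), not in the other 6 (0.0592 to 0.251), and in none of the leave-out fits (0.12 to 0.247). The size of the difference held at 0.55 to 0.72 log2 when any library was left out.

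Acly, which supplies cytosolic acetyl-CoA to both pathways, measured 219 to 294 CPM in WT and 245 to 354 CPM in KO (0.15 log2, interval -0.18 to 0.47). Acaca, the carboxylase that makes malonyl-CoA for Fasn, measured 17.8 to 19.4 CPM in WT and 15.7 to 18 CPM in KO (-0.15 log2, interval -0.60 to 0.31). Neither step before Fasn had separated groups.

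Elovl5, an elongase of polyunsaturated fatty acids, measured 155, 116 and 101 CPM in WT and 89.7, 89 and 92.4 CPM in KO. WT replicate 1 was the high library, the 3 KO libraries lay close together below all WT libraries, and the difference was -0.43 log2 (SE 0.15, limma adjusted p = 0.345). Fads1, the desaturase that makes arachidonic acid, measured 219, 221 and 204 CPM in WT and 190, 168 and 183 CPM in KO, also without overlap (-0.26 log2, SE 0.09, adjusted p = 0.333). Fads2, which acts earlier in the same chain and lies beside Fads1 on chromosome 19, measured 61.8, 61.4 and 70.9 CPM in WT and 56.1, 52.3 and 63 CPM in KO (-0.18 log2, interval -0.49 to 0.13). Its groups overlapped. Elovl6, which lengthens palmitate, measured 56.4, 60.7 and 51.5 CPM in WT and 55.8, 60.6 and 62.8 CPM in KO (0.09 log2, interval -0.21 to 0.39), also with overlap.

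The stearoyl-CoA desaturases, which make oleate, were represented mainly by Scd2. It measured 238, 259 and 244 CPM in WT and 322, 224 and 311 CPM in KO (0.19 log2, interval -0.10 to 0.48), with KO replicate 2 below every WT library. Scd1, the main desaturase of liver, had 424, 38 and 155 reads in WT (10.5, 1.03 and 3.55 CPM) and 99, 124 and 150 in KO (2.68, 2.89 and 3.43 CPM). The difference of -0.18 log2 had an interval of -1.87 to 1.51 and was 0.64 without WT replicate 1. The neighbouring copies Scd3 and Scd4, also named outside the rule, reached at most 1.06 and 2.9 CPM in WT and 0.0915 and 0.652 CPM in KO.

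Of the 3 LXR genes 0 were called, 0 passed an unadjusted p of 0.05 and 0 had separated groups (10.3% and 16.5% of all tested genes passed or were separated). Nr1h2, the widely expressed LXR beta, measured 78.2, 96.3 and 112 CPM in WT and 102, 103 and 83.3 CPM in KO (0.02 log2, SE 0.15, limma adjusted p = 0.986). Nr1h3, the LXR alpha of liver and macrophages, had 252, 69 and 178 reads in WT and 2, 138 and 257 in KO. In CPM, KO replicate 1 alone was near 0, and the other KO libraries (3.21 and 5.88) lay within the WT range of 1.87 to 6.24. The difference of -1.74 log2 (SE 1.44, limma adjusted p = 0.716) became 0.26 without KO replicate 1. Mylip, a ubiquitin ligase induced by LXR, measured 38.7, 50.9 and 48.9 CPM in WT and 45.7, 37.8 and 37.1 CPM in KO (-0.20 log2, SE 0.17, adjusted p = 0.736).

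Levels of different genes were compared per kilobase of exon, as mean CPM per kb over the 6 libraries. The median member stood at 16.5 CPM per kb. Acly (63.3), Fads1 (57.1), Srebf2 (53.3), Scd2 (48.8), Fdps (48) and Nr1h2 (48) were the highest on this length-scaled level, and Scd1 (0.83), Nr1h3 (1.72), Acaca (1.95) and Hsd17b7 (2.21) the lowest. Fdps stood above the steps before it, Mvd at 5.54 and Idi1 at 5.57 CPM per kb. Fasn, with the longest exon sum of the 36 genes (10050 bases), stood at 8.23 CPM per kb.

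Within paralogue pairs the same member was the higher one in every library for 5 of the 6 pairs on this length-scaled level. Srebf2 was 2.25 to 2.63 times Srebf1 in WT and 1.68 to 2.13 times in KO, ranges that do not overlap. Elovl5 was 4.11 to 5.86 times Elovl6 in WT and 3.14 to 3.44 times in KO, also without overlap. The ratios were not tested, and non-overlap of ratios was not counted over other gene pairs. Taken singly, Srebf2 and Srebf1 each overlapped between groups. Fads1 was 2.63 to 3.28 times Fads2 in WT and 2.64 to 3.08 times in KO, so the balance of the desaturases overlapped although Fads1 alone did not. Scd2 was 20.1 to 222 times Scd1 in WT and 68.6 to 106 times in KO. Nr1h2 was 13 to 53.3 times Nr1h3 in WT and 33.3 and 14.7 times in KO replicates 2 and 3, and KO replicate 1, with 2 reads of Nr1h3, gives no usable ratio. Insig1 and Insig2 were the exception, with ratios of 0.621 to 1.81 in WT and 1.13 to 1.71 in KO.

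**Figure D4:**
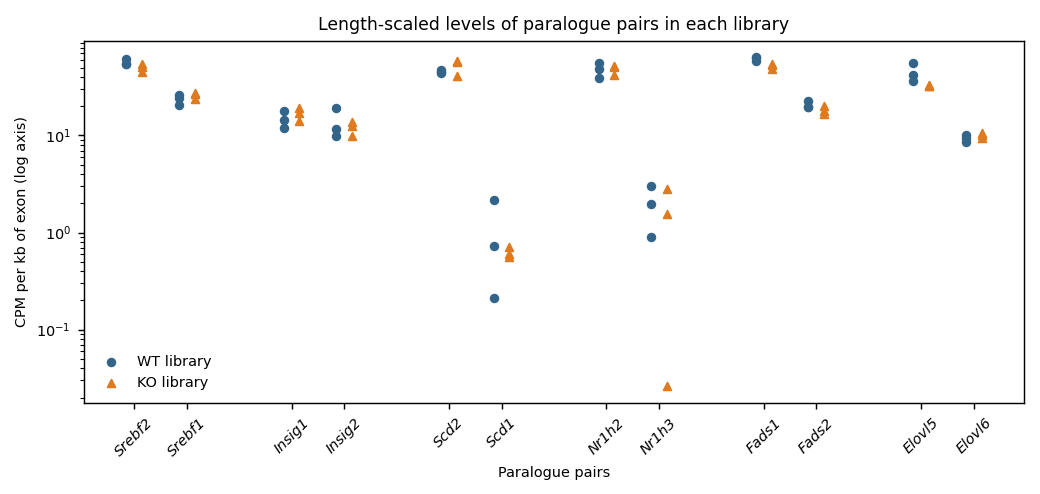
Length-scaled level (CPM per kb of exon, y axis, log scale) of 6 paralogue pairs (x axis) in the 3 WT libraries (blue circles) and 3 KO libraries (orange triangles). Srebf2, Scd2, Nr1h2, Fads1 and Elovl5 lie above their paralogues in all 6 libraries, while Insig1 and Insig2 overlap.

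Further genes of the pathway were counted from 6 lists of 90 genes, of which 83 were tested. Among the 83, 0 were called, 4 were higher and 5 lower at an unadjusted p below 0.05 (10.8%, against 10.3% of all tested genes), and 6 were separated in each direction (14.5% in all, against 16.5% of all tested genes). Their median difference was -0.03 log2. By share at an unadjusted p these genes were near the background. The 36 members stood at 27.8% with all 6 libraries and at 11.1% without KO replicate 1, and the difference between members and these genes was not tested.

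Of 13 genes for SREBP cleavage and sterol-regulated degradation, 1 was higher and 0 were lower at an unadjusted p below 0.05 (7.69%, against 10.3% of all tested genes). The median was 0.13 log2. The higher gene was Erlin1, which restrains SREBP activation in the endoplasmic reticulum, at 58.2, 65.6 and 71.4 CPM in WT and 103, 82.4 and 98.3 CPM in KO (0.54 log2, SE 0.14, limma adjusted p = 0.175). Sec24d, a coat protein of vesicles that leave the endoplasmic reticulum, measured 46.1 to 56.7 CPM in WT and 53.9 to 78.9 CPM in KO (0.36 log2, adjusted p = 0.506). Of the 13 genes 2 were separated and higher (15.4%, against 8.52% of all tested genes) and 0 separated and lower (against 8.01%). These 2 were Erlin1 and Mbtps1, and Sec24d groups overlapped. Mbtps1 measured 131, 135 and 139 CPM in WT and 153, 143 and 151 CPM in KO (0.14 log2, limma adjusted p = 0.621).

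Of 15 tested genes for other sterol synthesis, oxysterols and storage, 1 was higher and 2 were lower (20.0%, against 10.3% of all tested genes). The median was -0.02 log2. Nceh1, a hydrolase of cholesteryl esters, measured 149, 134 and 148 CPM in WT and 75.9, 106 and 97.3 CPM in KO (-0.64 log2, SE 0.14, limma adjusted p = 0.0869). It passed the threshold in the same 4 alternatives as Fasn, at adjusted p of 0.035 to 0.0499, and in no leave-out fit. Cyp27a1, which makes an oxysterol ligand of LXR, measured 3.17, 2.74 and 2.13 CPM in WT and 9.17, 9.69 and 4.9 CPM in KO (1.51 log2, SE 0.44, adjusted p = 0.248). Cyp27a1 is abundant in macrophages. The joint list of monocyte and macrophage markers summed higher in KO, with Ly6c2 as its called gene. Adgre1, Csf1r, C1qc and Ccr2 were also separated and higher but not called, while Cd68, Vcam1 and Spic overlapped between groups. The part of those cells in the Cyp27a1 value was not tested.

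Of 21 tested genes for fatty acid supply, elongation and activation, 1 was higher and 2 were lower (14.3%, against 10.3% of all tested genes). The median was -0.04 log2. Elovl7, an elongase of saturated fatty acids, measured 20.9, 17.6 and 13.1 CPM in WT and 36, 31.4 and 35.5 CPM in KO (1.02 log2, SE 0.22, limma adjusted p = 0.0869). Acss2, which makes acetyl-CoA from acetate, measured 92.4, 95.6 and 106 CPM in WT and 86.5, 60.6 and 72 CPM in KO (-0.44 log2, SE 0.15, adjusted p = 0.318). The groups of both genes were separated, in opposite directions.

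In each of the other 3 lists at most 1 gene passed an unadjusted p of 0.05. The shares were 12.5% for LXR partners and targets, 7.69% for fatty acid oxidation and 0% for the isoprenoid branch. Of all tested genes 10.3% passed. Of 8 tested LXR partners and targets 1 was higher and 0 were lower: Rxrb, an RXR partner of LXR, had a difference of 0.43 log2 (adjusted p = 0.467), and the sterol exporter Abcg1 one of -0.26 log2 (adjusted p = 0.526). Of 13 genes of fatty acid oxidation 0 were higher and 1 was lower (median -0.14 log2): Hadh had a difference of -0.25 log2 (adjusted p = 0.471) and Acadl one of -0.19 log2 (adjusted p = 0.498). Of 13 genes of the isoprenoid branch, which uses the products of Idi1 and Fdps for prenylation, dolichol and ubiquinone, 0 passed in either direction (median -0.06 log2). Icmt, which methylates prenylated proteins, showed 0.61 log2 (adjusted p = 0.572) and Rabggta, a prenyl transferase for Rab proteins, 0.27 log2 (adjusted p = 0.594).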

How the data were processed

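RNA of 6 LT-HSC libraries (3 WT, 3 KO) was sequenced, and the authors deposited 1 table of log2 values, with genes named by NCBI ID. FastQC, HISAT2, featureCounts, limma and mm10 are named in the list of tools, per the submitters' processing notes, while the versions used and the settings for strand and multimapping were not given in the sources used here. Each deposited log2 value is a log2 CPM with 0.5 reads added, and undoing this gave whole reads for 100.0% of values (tolerance 0.01). CPM in the text is reads over effective library size. Symbols, spans and promoters came from RefSeq GRCm38.p6 (25275 IDs matched, 1904 not), and exon lengths from GENCODE M21.

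Genes with at least 1 CPM in 3 libraries entered limma (version 3.58.1, R 4.3.3; lmFit, then eBayes with trend, no block), were adjusted by Benjamini-Hochberg over all 13018 genes and were called at adjusted p below 0.05. The fit was tested on simulated counts with a single fixed dispersion. Their changes were larger than most member differences, so that test does not show how well differences of member size are found. Intervals are 95%. All 36 members are named. Values per library are given for called members, the 3 with the smallest p in each role group and paralogue pairs, and from each other list the called genes or else the 2 with the smallest p. Mbtps1 is given in addition, for its separated groups. Members and lists were chosen with earlier results of these data known. Alternatives were low-value filters, other scalings and pseudocounts, voom, eBayes settings, a block by replicate number and omission of each library. The libraries are not stated to carry molecular identifiers, so reads may repeat molecules and counting errors cover counting only. No p-value is adjusted over the members alone.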

Additional observations from a re-analysis of the deposited data

How the results depend on the processing

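Of 358 member values under 10 other settings with all 6 libraries, 354 kept their direction and side of the threshold and 0 reversed. With a 5 CPM filter (34 of 36 members tested), log2(CPM + 1), log2(CPM + 5) or voom, 1 member (Fasn) was called, at adjusted p of 0.0354, 0.0379, 0.0338 and 0.0481, and 1 further pathway gene (Nceh1); the cause was not tested. Over all genes, log2(CPM + 1) gave 164 calls and log2(CPM + 5) 168, against 91, and leaving out a library gave 41 to 97 (with the filter repeated 42 to 97, with the same genes kept 41 to 92). Without the trend Prdm16 kept its value of -1.93 at adjusted p = 0.0967, and with a library left out it ran from -2.17 to -1.76. The fatty acid median was -0.029 with the 5 CPM filter and -0.118 to 0.013 over leave-outs, the mevalonate median 0.192 to 0.6 and the SREBP median -0.115 to 0.054.

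Each omission was fitted with the filter repeated and again with the same genes kept, and both fits are counted here. Among these 432 leave-out values 36 reversed, all in 11 members. Every reversal occurs in both fits with the same log2 value, so the count repeats each one. The log2 ranges of these members follow. Hmgcs1 ran from -0.09 to 0.192, Mvk from -0.084 to 0.727, Sqle from -0.089 to 0.166 and Cyp51 from -0.072 to 0.007. Hsd17b7 ran from -0.182 to 0.311, Scap from -0.034 to 0.167, Insig2 from -0.319 to 0.152 and Stard4 from -0.333 to 0.019. Scd1 ran from -1.03 to 0.635, Nr1h2 from -0.121 to 0.141 and Nr1h3 from -2.96 to 0.261. The smallest adjusted p of a member in these fits was 0.12.

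With the replicate block 67 genes and 0 members were called, with Fasn at adjusted p = 0.193 and Prdm16 at 0.045. Same-numbered libraries deviated together by correlations of only -0.021 to 0.02, so the numbers were not taken to pair the libraries.

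Each group holds 3 portions of pooled marrow, and the spread between mice was not measured. Nr1h3, with 2 reads in KO replicate 1, has a fitted value that depends on the 0.5-read offset.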
